A study of Mus musculus with 14 samples.

Results

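Vax1, Vax2, Emx1 and Emx2 form a pair of small families of homeobox genes, and the trimethylation of histone H3 lysine 27 (H3K27me3) over them was followed through 3 deletions of Polycomb loop anchors in mouse embryonic stem cells (mESCs). The members were taken as the H3K27me3 peaks that lay within 10 kb of the RefSeq gene body of each gene, which gave 36 of the 74458 peaks in the table. Of these, 6 belonged to Vax1, 15 to Vax2, 7 to Emx1 and 8 to Emx2. Vax2 was included because the study named it as a loop partner of the Hoxa cluster. The rule did not use any measured value, but the members were chosen with earlier results of these data known. The mark was profiled by Cut&Tag, in which an antibody guides the transposase Tn5 to the mark and Tn5 cuts and tags the DNA nearby. Every line was made by CRISPR-Cas9 editing of G4 mESCs, an F1 hybrid line, and was kept with LIF on CD1 feeder cells. The alleles were homozygous and removed the Hoxa cluster (Hoxa deletion, 3 libraries), Wnt6 (Wnt6 deletion, 2 libraries) or Hmx1 (Hmx1 deletion, 2 libraries). Unedited cells had no column, so each deletion was compared with the others pooled, and all comparisons therefore share libraries. By the wording of the study each deletion is a single clone, so that deletion and clone cannot be told apart. The labels do not say whether replicates were separate cultures, and p-values then measure only the spread between these libraries, which may be technical.

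Homeobox genes encode transcription factors that bind DNA through a homeodomain and set regional identity in the embryo. Vax1 and Vax2 act in the ventral eye and the optic stalk, and Emx1 and Emx2 act in the dorsal forebrain, with Emx2 also needed for the urogenital tract. All 4 are silent or nearly so in pluripotent cells, where Polycomb repressive complex 2 deposits H3K27me3 over developmental regulators and Polycomb-bound regions can touch each other over long distances. Vax2 and Emx1 lie on chromosome 6 with the Hoxa cluster. Vax1 and Emx2 lie on chromosome 19, which carried none of the deletions.

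The deleted stretches carried their labels: the summed level of the peaks over Hoxa2 to Hoxa13 was at most 2.26 CPM (counts per 1000000 counts of the library) in the Hoxa deletion and 1311 to 1486 in the other libraries. The corresponding values were at most 17.0 against 830.2 to 923.6 CPM for Wnt6 and the adjacent Wnt10a, and at most 2.03 against 455.1 to 546.6 for Hmx1. Totals over the peaks ran from 6016500 to 36563541 counts, and counts behind the summed value of a gene from 1747 to 19092. The share of all counts that fell at the 4 genes was 0.1683% to 0.1837%. Of 10 genes active in mESCs, 7 had a peak within 10 kb, at 5.73 to 18.5 CPM per kb of peak, and none reached the lowest of the 4 genes. Of 8 fibroblast genes, which feeder cells would use, 7 had a peak, at 3.10 to 51.0 CPM per kb. A library is a mixture of cells, in which fewer cells with the mark and less mark per cell cannot be told apart. Values are relative to the total of each library, so a uniform shift over all peaks would not appear.

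In GRCm38 (mm10), Vax2 spans chr6:83711239-83738313 and Emx1 chr6:85187931-85204463, 1.45 Mb apart and 31.5 and 32.9 Mb from Hoxa13. On chromosome 19, Vax1 spans chr19:59164480-59170397 and Emx2 chr19:59458690-59465357, at a distance of 0.288 Mb. The windows also reach other genes, among them Vax2os and Atp6v1b1 beside Vax2, Sfxn5 beside Emx1 and Emx2os beside Emx2, and a peak was not assigned to one transcript. RefSeq promoters were in the table used here for 3 of the 4 genes (Vax1, Emx1 and Emx2). They are shown because Polycomb domains in mESCs are known to form over CG-rich promoters and the 3 promoters differ in that respect. Each line holds the 250 bases before the gene start, 5′ to 3′ on the strand of the gene, with every CG in capitals.

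Vax1 promoter, chr19:59170398-59170647, minus strand: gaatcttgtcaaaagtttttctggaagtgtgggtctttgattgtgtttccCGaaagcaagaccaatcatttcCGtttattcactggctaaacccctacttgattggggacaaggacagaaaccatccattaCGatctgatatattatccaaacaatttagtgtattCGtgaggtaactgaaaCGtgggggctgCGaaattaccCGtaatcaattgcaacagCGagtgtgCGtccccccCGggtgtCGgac

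Emx1 promoter, chr6:85187681-85187930, plus strand: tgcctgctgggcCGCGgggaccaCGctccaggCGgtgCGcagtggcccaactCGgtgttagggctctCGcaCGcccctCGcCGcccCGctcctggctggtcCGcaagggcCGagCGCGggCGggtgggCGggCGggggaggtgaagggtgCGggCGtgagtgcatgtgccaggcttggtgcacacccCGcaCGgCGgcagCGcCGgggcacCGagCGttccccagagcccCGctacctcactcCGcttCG

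Emx2 promoter, chr19:59458440-59458689, plus strand: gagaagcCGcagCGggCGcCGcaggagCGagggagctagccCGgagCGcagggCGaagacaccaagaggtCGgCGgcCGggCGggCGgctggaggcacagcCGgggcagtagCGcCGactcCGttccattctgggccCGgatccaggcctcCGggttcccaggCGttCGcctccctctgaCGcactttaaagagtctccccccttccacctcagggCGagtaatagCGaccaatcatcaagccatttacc

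The Emx1 promoter held 30 CG and was 75.6% GC, and 5.95% of 32817 RefSeq promoters of this length held at least as many CG. It lay inside the strongest peak of the gene, at chr6:85185239-85188491. The Emx2 promoter held 24 CG (67.2% GC), a number met by 12% of promoters, and ran into a peak that ended 25 bases before the gene start (chr19:59457874-59458665). The Vax1 promoter held 11 CG (44.8% GC), reached by 35.5% of promoters, and overlapped no peak. The nearest peak to the Vax1 start was 623 bases away inside the gene (chr19:59169042-59169774), so the mark flanked this promoter on both sides without a peak over it. For comparison, 42.5% of all promoters of this length overlapped a peak. The letters TAATTA, the core of many homeodomain sites, were in none of the 3 sequences on either strand, and 4.85% of promoters held them.

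All 4 genes carried strong H3K27me3 in every library, but the shape of the marked domain differed between them. Of the 36 peaks, 35 were above the median peak (3.8 CPM), 18 were in the highest 10% and 3 in the highest 1%, with means over the 7 libraries from 2.45 to 275.4 CPM. Emx1 was dominated by its start: the peak over it (chr6:85185239-85188491) gave 50.6% of the summed CPM of the gene, and with the next strongest peak, at chr6:85191534-85194716, it gave 81.2%. Vax2 had a similar single summit at its lower-coordinate end (chr6:83710467-83712487) with 42.1% of the sum, and the rest was spread over 14 smaller peaks. The signal at Vax2 was also lopsided along the gene. Peaks near or before the lower-coordinate end had 39.3 to 87.9 CPM per kb, and those from 83729545 to the far side of the gene had 8.24 to 22.3. Vax1 was compact, with 84.9% of its sum in 3 peaks and the densest peak of all 36, at 107.0 CPM per kb (chr19:59169042-59169774). Emx2 was the most even: its strongest peak (chr19:59461472-59463358, inside the gene) gave 16.9% of the sum, the first 3 gave 47.6%, and none of its 8 peaks fell under 40.4 CPM per kb.

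**Figure D1:**
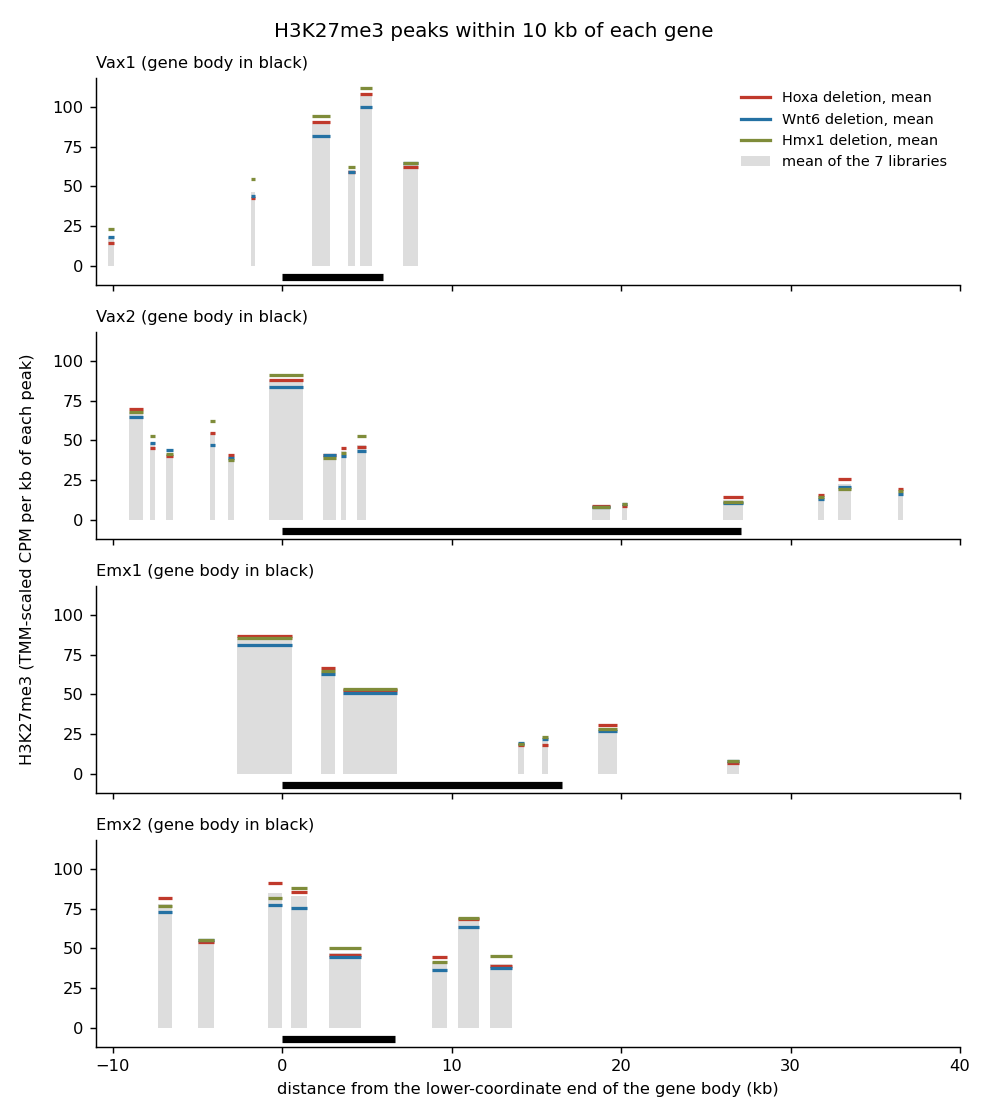
H3K27me3 in CPM per kb of each peak (vertical axis) against the distance from the lower-coordinate end of the gene body in kb (horizontal axis), with the mean of the 7 libraries as grey bars, the mean of each deletion as coloured lines and the gene body in black. Emx1 and Vax2 have their highest bars at the start of the black line, Vax1 is compact and Emx2 stays at or above 40.4 CPM per kb within 10 kb of the gene, and the coloured lines lie close together.

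Per kb of peak within 10 kb, the order of the genes was Vax1, Emx2, Emx1 and Vax2 in every deletion, with means over the 7 libraries of 73.9, 59.3, 56.1 and 43.0 CPM per kb. The median over 17003 protein-coding genes with a peak in the same window was 10.9, and the 4 genes stood at the 99.1st, 97.1st, 96.4th and 91.7th percentile. The order depends on the window: within 50 kb Emx2 was highest in every deletion (46.5 to 50.8), and Vax1 had 36.5 to 39.0, next to Emx1 with 35.8 to 37.9. Vax1 lay at 74.5, 69.3 and 76.8 CPM per kb in the Hoxa deletion, 73.5 and 67.1 in the Wnt6 deletion and 80.7 and 75.4 in the Hmx1 deletion. Emx2 lay at 63.4, 59.4 and 58.7 in the Hoxa deletion, 57.0 and 54.0 in the Wnt6 deletion and 57.8 and 64.7 in the Hmx1 deletion. For Vax1 the Hoxa libraries overlapped those of both other deletions, and both Wnt6 libraries were under both Hmx1 libraries. For Emx2 the Hoxa and Hmx1 libraries overlapped while both Wnt6 libraries were under them. Emx1 lay at 59.6, 55.8 and 55.7 CPM per kb in the Hoxa deletion, 56.8 and 51.4 in the Wnt6 deletion and 54.2 and 59.1 in the Hmx1 deletion. Vax2 lay at 45.5, 43.0 and 43.0 in the Hoxa deletion, 42.8 and 39.4 in the Wnt6 deletion and 42.3 and 45.2 in the Hmx1 deletion. For Emx1 and Vax2 a Wnt6 library was the lowest of the 7 and a Hoxa library the highest, with overlap between Hoxa and Hmx1. The ratio of Emx1 to Vax2 was 1.28 to 1.33 in the 7 libraries. Emx1 and Emx2, next to each other in the order, had a ratio of 0.914 to 0.996, which is less apart than the libraries of either gene. The ratio of Vax2 to Vax1 was 0.525 to 0.62, lowest in Hmx1 replicate 1 and highest in Hoxa replicate 2.

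**Figure D2:**
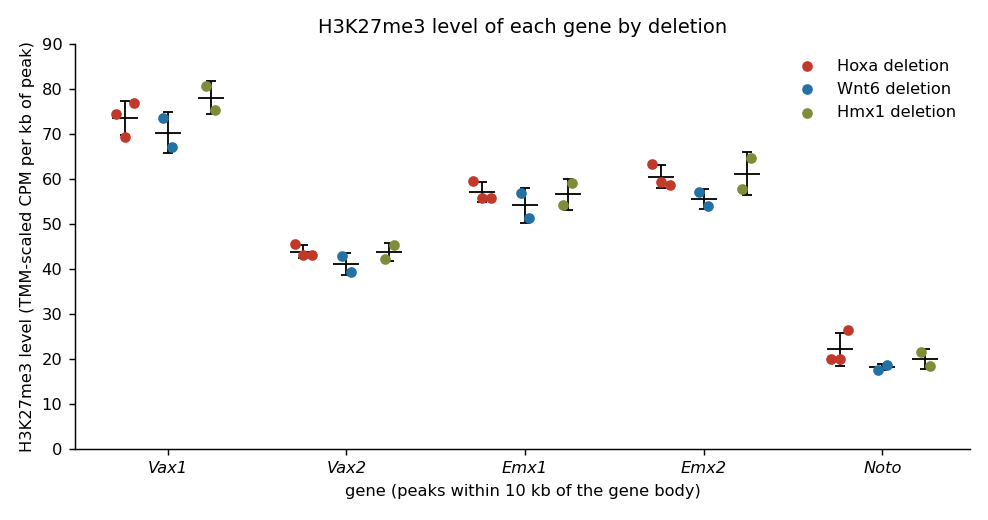
H3K27me3 level in CPM per kb of peak (vertical axis, from 0) of the 4 genes and of Noto, a homeobox gene near Emx1, in each deletion, with points for libraries and black marks for the mean and SD over 3 Hoxa, 2 Wnt6 and 2 Hmx1 libraries. Vax1 is highest (67.1 to 80.7) and Vax2 lowest of the 4 genes (39.4 to 45.5), and deletions differ little within a gene.

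The Hoxa deletion asks whether the 2 linked genes, and Vax2 as loop partner, keep their mark when the anchor is gone. Neither Vax2 nor Emx1 differed beyond the spread between libraries. The summed level of Vax2 was 446.4, 421.5 and 422.0 CPM in the Hoxa deletion, 419.6 and 386.7 in the Wnt6 deletion and 415.2 and 443.4 in the Hmx1 deletion. The Hoxa libraries overlapped those of the Hmx1 deletion and lay above both Wnt6 libraries. The log2 fold change of Vax2 was 0.05 (95% interval -0.08 to 0.17, edgeR adjusted p = 0.693). The interval runs from a fall of 5.32% to a rise of 12.7%, and reflects only the spread between these libraries. Summed Emx1 was 578.9, 542.0 and 540.6 CPM against 551.8 and 498.9 (Wnt6) and 526.1 and 574.0 (Hmx1), overlapping both. Its log2 fold change was 0.04 (-0.08 to 0.16, adjusted p = 0.716). The unlinked paralogs on chromosome 19 gave values of the same size, -0.01 (-0.15 to 0.13, adjusted p = 0.943) for Vax1 and 0.05 (-0.07 to 0.18, adjusted p = 0.658) for Emx2. None of the 4 genes passed an adjusted p of 0.05, by edgeR or by DESeq2. With the main settings none had an unadjusted p under 0.05 (background 29.4%). Offsets that depend on abundance were the only alternative that gave such a p here. With them Vax2, Emx1 and Emx2 each had a log2 fold change of 0.08 and an unadjusted p under 0.05 by edgeR. Their adjusted p was 0.126 to 0.159, and Vax1 stayed near 0 (0.01). The adjusted p was passed by 19.4% of all gene windows, and by 15.3% of the 1049 windows with at least the summed CPM of Vax1. At the stricter rule, which adds an absolute log2 fold change over 1, the share of all windows was 0.512% and none of the 4 was called. The test was edgeR's quasi-likelihood test with Benjamini-Hochberg adjustment over all 17003 genes.

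The Wnt6 and Hmx1 deletions, on other chromosomes, gave no called change at the 4 genes. In the Wnt6 deletion all 4 fold changes were under 0, from -0.13 for Emx2 (95% interval -0.27 to 0.01) to -0.07 for Emx1, with edgeR adjusted p of 0.873 to 0.887. They leaned on Wnt6 replicate 2: without it they were -0.0015 for Emx1, -0.03 for Vax1 and Vax2 and -0.09 for Emx2, and without replicate 1 they were -0.15 to -0.17. In the Hmx1 deletion all 4 were above 0 with TMM, from 0.02 for Emx1 to 0.11 for Vax1 (-0.05 to 0.27), with edgeR adjusted p of 0.493 to 0.911, but Vax2, Emx1 and Emx2 fell to -0.04, -0.06 and -0.01 with offsets that depend on abundance and Emx1 to -0.01 with library totals. In either deletion DESeq2 gave none of the 4 an adjusted p under 0.05, and edgeR with the settings above gave none an unadjusted p under 0.05. Emx2 in the Wnt6 deletion had an unadjusted p of 0.0304 to 0.0421 under 4 alternatives (library totals, genotype terms, a 2 kb window and without Hmx1 replicate 1), with an adjusted p of at least 0.299. Background shares at an adjusted p of 0.05 were 0.0412% of gene windows for Wnt6 and 0.0706% for Hmx1, and called windows made up 0.0353% and 0.0176%. In these fits the pooled side holds the Hoxa libraries, whose own differences add to the spread. The median over all gene windows was -0.04 in either deletion. The lists of genes that act beside these families, given below, had medians of the same sign as the 4 genes in both.

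In pairs, the mean level was lowest in the Wnt6 deletion for each gene, although Wnt6 over Hmx1 turned to 0.02 at Emx1 with offsets that depend on abundance, and the highest mean exceeded the lowest 1.11 times for Vax1, 1.10 times for Emx2, 1.07 times for Vax2 and 1.05 times for Emx1. Hoxa and Hmx1 were neighbours in every order and did not differ beyond their spread, with log2 fold changes of Hoxa over Hmx1 from -0.08 (Vax1) to 0.01 (Emx1). The largest pairwise differences were those of Wnt6 under Hmx1, -0.15 at Vax1 (edgeR adjusted p = 0.433) and -0.15 at Emx2 (adjusted p = 0.430). The unadjusted p by edgeR was 0.0491 and 0.0476, with 95% intervals just under 0, and neither passed after adjustment. Emx2 was 0.12 higher on the log2 scale in Hoxa than in Wnt6 (adjusted p = 0.238). Background shares at an adjusted p of 0.05 were 15.1% of gene windows for Hoxa over Wnt6, 20.1% for Hoxa over Hmx1 and 1.15% for Wnt6 over Hmx1. The Emx2 value alone passed under other scalings, with an adjusted p of 0.0478 by library totals and 0.0365 by offsets that depend on abundance.

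**Figure D3:**
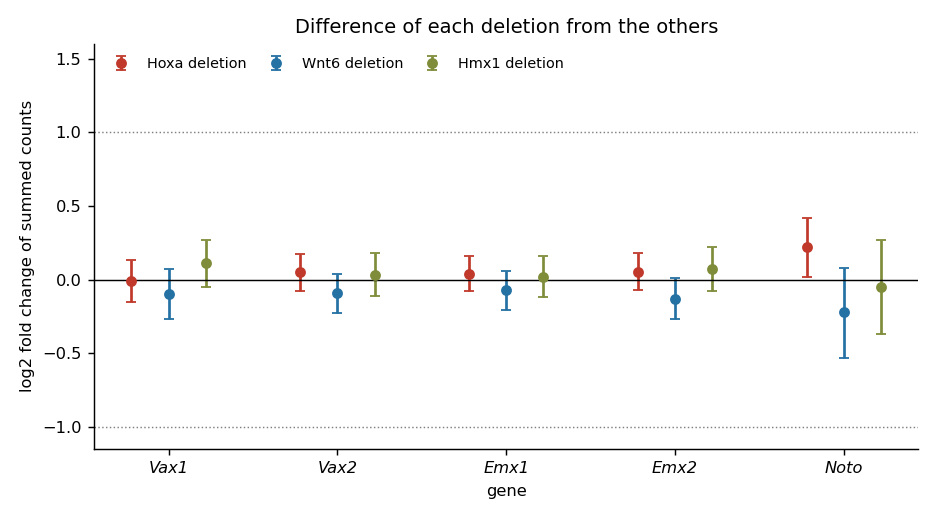
Log2 fold change of the summed counts (vertical axis) of the 4 genes and Noto in each deletion against the others, with 95% intervals as bars and dotted lines at the fold change a call needs. The 4 genes stay between -0.13 and 0.11, and every interval at them holds 0.

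Peak by peak, the 4 genes held no called peak in any of the 3 comparisons by edgeR or by DESeq2. In the Hoxa deletion the background share of called peaks was 1.55% of 74439, and it was 0.0497% in the Wnt6 and 0.0282% in the Hmx1 deletion. By adjusted p alone, 2 of 36 peaks passed in the Hoxa deletion, which is 5.56%, beside 8.52% of all peaks, and both were higher, beside 4.32% of all peaks. At an unadjusted p under 0.05 the count was 4 of 36 peaks (11.1%), 3 of them higher, beside 20.8% of all peaks. The Wnt6 deletion gave 0 peaks and the Hmx1 deletion 1 peak at an unadjusted p under 0.05, where the background was 5.20% and 8.96%, and none passed after adjustment (background 0.0564% and 0.0309%). At the strongest peak of each gene, log2 fold changes in the Hoxa deletion were 0.01 (95% interval -0.14 to 0.16) at the Vax2 summit, 0.06 (-0.08 to 0.20) at the Emx1 summit (0.12 with offsets that depend on abundance, adjusted p = 0.0400, the only alternative under which it passed), 0.04 (-0.14 to 0.21) at the strongest Vax1 peak (chr19:59166226-59167302) and -0.06 at that of Emx2.

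Both peaks with an adjusted p under 0.05 lay at the far end of Vax2 and were higher in the Hoxa deletion. Their means over the 7 libraries were 14.1 and 17.4 CPM, beside 177.6 CPM at the Vax2 summit. They exceeded 82.7% and 85.3% of all peaks. The peak over the higher-coordinate end of the gene, chr6:83737287-83738431, had 14.3, 17.3 and 17.6 CPM in the Hoxa deletion, 11.1 and 13.6 in the Wnt6 deletion and 12.3 and 12.6 in the Hmx1 deletion. The 3 Hoxa libraries lay above the other 4. By edgeR this was a log2 fold change of 0.40 (95% interval 0.14 to 0.66, adjusted p = 0.0420). A further peak, chr6:83744069-83744849, lay 5.76 kb beyond the gene, within the span of Atp6v1b1, which encodes a subunit of a vacuolar proton pump. It had 19.4, 20.8 and 19.5 CPM in the Hoxa deletion, 16.3 and 15.7 in the Wnt6 deletion and 16.4 and 13.8 in the Hmx1 deletion, again without overlap. The log2 fold change there was 0.37 (0.13 to 0.62, edgeR adjusted p = 0.0426). Together these peaks made up 3.35% and 4.12% of the summed CPM at Vax2. Neither reached the fold change a call needs. Their adjusted p rose over 0.05 in several single-library omissions, without Hoxa replicate 2 (adjusted p of 0.192 and 0.197) and without Hmx1 replicate 2 (0.0934 and 0.173) among them. It was 0.0639 and 0.0651 with TMM factors without chromosome 8, 0.081 and 0.0716 with offsets that depend on abundance, and 0.215 and 0.0697 after downsampling to the smallest library.

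The other tested peaks at the gene ends did not pass. The peak just before the Emx2 start differed by 0.20 on the log2 scale (adjusted p = 0.193 by edgeR) and the peak nearest the far end of Emx1 (chr6:85203313-85203624) -0.29 (adjusted p = 0.334). At the lower-coordinate end of Vax1, the nearest peak, chr19:59162634-59162865, had -0.16 (adjusted p = 0.615), and the peak by the Vax1 start had 0.04. Counting libraries without a test, the Hoxa libraries lay above all others at 4 of 36 peaks and below all at 1, where the background was 9.09% above and 9.19% below. The median over the peaks of a gene was -0.03 for Vax1, 0.06 for Vax2, 0.01 for Emx1 and 0.06 for Emx2, and -0.01 over all tested peaks. In the Wnt6 deletion the medians ran from -0.14 (Emx2) to -0.06 (Emx1), and in the Hmx1 deletion from -0.0019 (Vax2) to 0.11 (Vax1).

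Beyond the 10 kb windows, peaks 10 to 50 kb away extended the picture for the Hoxa deletion. On the higher-coordinate side of Vax2, 8 of 8 peaks had a fold change above 0, with a median of 0.21 on the log2 scale and a range of 0.05 to 0.66. The strongest of them, chr6:83762494-83764093, had 62.2 CPM. On the same side of Emx1, 6 of 6 were above 0 with a median of 0.27 (0.07 to 0.38). The lower-coordinate sides of both genes were mixed, with 6 of 10 above 0 at Vax2 (median 0.04) and 3 of 7 at Emx1 (median -0.02). On chromosome 19 the lower-coordinate side of Emx2 had 0 of 6 above 0 (median -0.27) and the higher-coordinate side of Vax1 had 4 of 9 (median -0.04). Of all tested peaks, 49.2% in the Hoxa, 49.6% in the Wnt6 and 49.1% in the Hmx1 comparison were above 0. Runs to one side also appeared in the other deletions, which share these libraries: 0 of 8 above 0 in the Wnt6 deletion on the higher-coordinate side of Vax2 (median -0.18), 0 of 6 in the Hmx1 deletion on that side of Emx1 (median -0.25) and 6 of 6 in the Wnt6 deletion on the lower-coordinate side of Emx2 (median 0.30). None of these peaks passed an adjusted p of 0.05, and neighbouring peaks are not independent. Over all tested peaks of chromosome 6, 10.2% passed in the Hoxa deletion with a median of 0.01, and over those of chromosome 19, 6.95% with a median of 0.08.

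**Figure D4:**
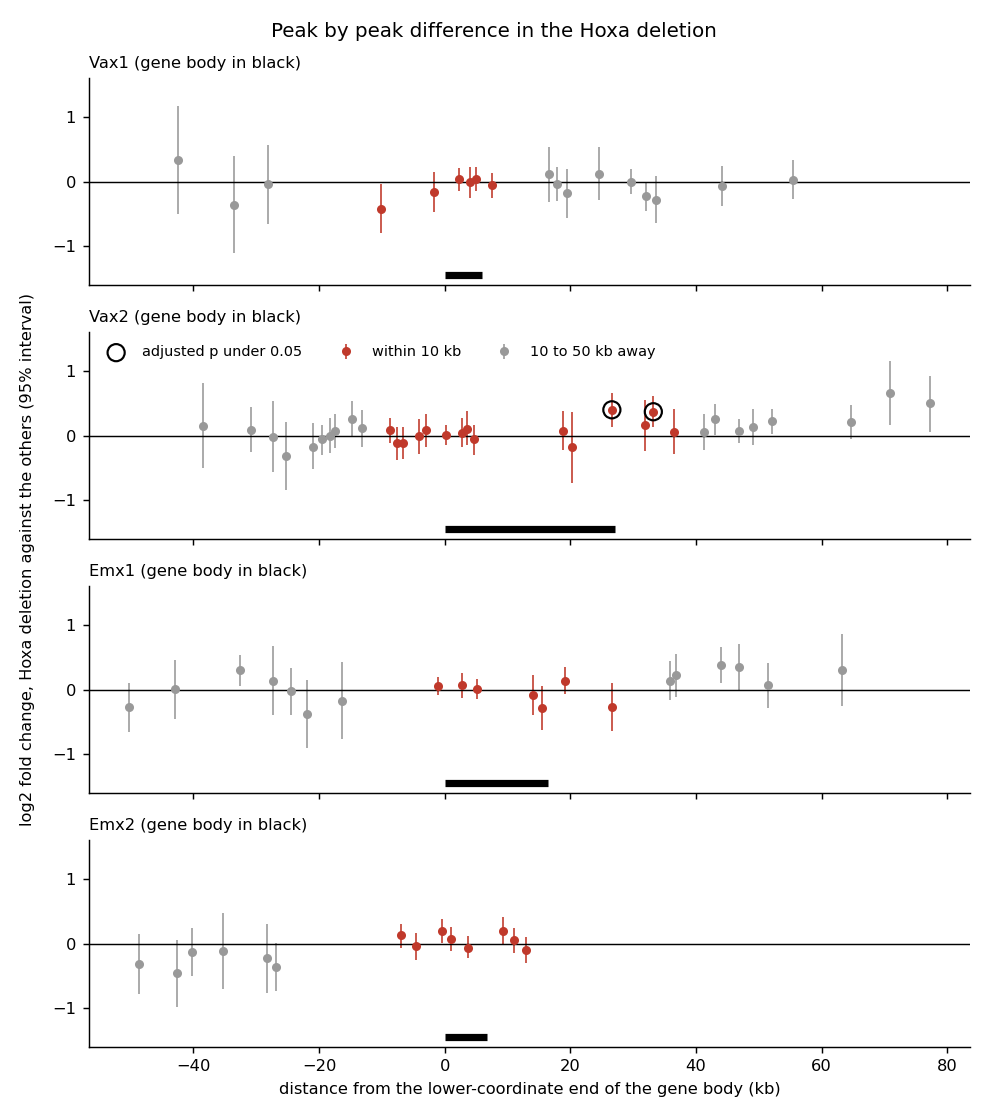
Log2 fold change of each peak in the Hoxa deletion against the others with its 95% interval (vertical axis) against the distance from the lower-coordinate end of the gene body in kb (horizontal axis), for peaks within 10 kb (red) and 10 to 50 kb away (grey), with the gene body in black. The 2 circled peaks at the far end of Vax2, at 0.40 and 0.37, had an adjusted p under 0.05, and the grey peaks on that side of Vax2 and Emx1 lie above 0.

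Noto, a homeobox gene of the notochord 0.219 Mb from Emx1 on the same chromosome, was measured as a linked relative and had far less mark. It had 3 peaks and a mean of 20.4 CPM per kb, at the 72.1st percentile of genes. Its summed level was 39.8, 40.2 and 52.7 CPM in the Hoxa deletion, 35.4 and 37.5 in the Wnt6 deletion and 43.3 and 37.1 in the Hmx1 deletion. The Hoxa and Hmx1 ranges overlapped, and Hoxa replicate 3 stood apart. In the Hoxa deletion Noto had a log2 fold change of 0.22 (95% interval 0.02 to 0.42, edgeR adjusted p = 0.115), and 0.08 without that library. It passed in the peaks on the gene body (0.31, adjusted p = 0.0355), in a 2 kb window (0.31, adjusted p = 0.0366), without Hmx1 replicate 1 (0.27, adjusted p = 0.0373) and against the Wnt6 deletion alone (0.28, adjusted p = 0.0386). Of its peaks, the one over its lower-coordinate end (chr6:85423610-85424518) gave 79.0% of the sum. Only this peak lay on the gene body or within 2 kb, and in the test of peaks it did not pass (0.31, edgeR adjusted p = 0.0671). The summed value also did not pass with offsets that depend on abundance (0.10, edgeR adjusted p = 0.53) or with a replicate block (0.08, adjusted p = 0.729).

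Over the 7 libraries the 4 genes varied little, with an SD of log2 CPM of 0.0685 for Vax2, 0.0736 for Emx1 and 0.0899 for Vax1 and Emx2, beside a median of 0.0789 in the 1049 genes with at least the level of Vax1. Their patterns over the libraries were alike for 3 of them and not for the fourth. As a description over 7 libraries that share depth and scaling, Pearson's r of log2 CPM was 0.98 between Vax2 and Emx1, 0.96 between Vax2 and Emx2 and 0.91 between Emx1 and Emx2, but 0.37 to 0.49 between Vax1 and the others. Among 1048 candidate genes of at least that level, those most like Vax1 were Mcidas (r = 0.986) and Ccno (0.981), neighbours on chromosome 13. Those most like Vax2 were Pax5 (0.985) and Hoxc10 (0.978), and those most like Emx1 were Hoxc10 (0.994) and Hoxd12 (0.985). Emx2 was most like Foxf2 (0.995) and Hpcal4 (0.991).

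Genes that act beside the Vax and Emx families were measured in the same way. Their H3K27me3 was of similar density, with a median of 50.6 CPM per kb over 22 eye and optic stalk genes, 52.8 over 22 forebrain genes and 49.0 over 13 urogenital genes. With all libraries, none was called at the stricter rule in any deletion. By edgeR adjusted p alone, the Hoxa deletion gave 2 eye genes higher and 1 lower, 2 forebrain genes higher, and 1 urogenital gene higher and 1 lower, beside 13.6% higher and 5.82% lower of all gene windows. Medians in that deletion were -0.02, 0.01 and 0.01, and 0.06 over all genes. In the Wnt6 deletion the list medians were -0.06, -0.08 and -0.09, and in the Hmx1 deletion 0.06, 0.08 and 0.07. Over all genes the median was -0.04 in both.

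The gene furthest from 0 in these lists was Efnb2, an ephrin of the dorsal retina. It had 142.8 ± 4.57 CPM (SD, n = 3) in the Hoxa deletion, 281.8 ± 34.0 (n = 2) in the Wnt6 deletion and 284.3 ± 3.42 (n = 2) in the Hmx1 deletion. The difference was -0.99 on the log2 scale by edgeR (adjusted p = 9.56e-16), just short of the fold change a call needs. Leaving out each library gave -1.03 to -0.95, a range that crosses that limit. Efnb2 lies on chromosome 8, where 40.8% of all tested peaks passed and the median was -0.59 in the Hoxa deletion, and the part of this chromosome-wide shift in the Efnb2 value was not tested. Sall1, a urogenital zinc finger gene on the same chromosome, fell by 0.40 on the log2 scale (adjusted p = 0.0210). The other genes that rose included 3 of chromosome 14, where the median over all tested peaks was 0.005. Bmp4, the dorsal signal of the eye, rose by 0.65 (adjusted p = 2.08e-10), from 95.7 ± 2.52 and 94.4 ± 5.80 CPM in the Wnt6 and Hmx1 deletions to 149.1 ± 7.0. Fgf17, a signal of the rostral forebrain, rose by 0.65 (adjusted p = 5.16e-07), and Otx2, a head transcription factor on both the eye and the forebrain list, rose by 0.32 (adjusted p = 7.34e-04). Eya1, a transcriptional cofactor of the developing kidney, rose by 0.45 (adjusted p = 8.61e-04). Bmp4, Otx2 and Sall1 were named after their values were seen.

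In the Wnt6 deletion no gene of these lists passed by edgeR against the others pooled, with 2 eye, 2 forebrain and 1 urogenital gene at an unadjusted p under 0.05 (background 5.30%), and the smallest p of each list belonged to Otx2 (-0.39, edgeR adjusted p = 0.570) and to Pax2 (-0.12, adjusted p = 0.873), the optic stalk and kidney factor. DESeq2 gave an adjusted p of 0.059 for Otx2 and 0.83 for Pax2. Otx2 passed when every genotype had its own term (-0.37, edgeR adjusted p = 4.74e-05) and against the Hoxa deletion alone (-0.47, adjusted p = 3.62e-08). With those terms 612 of 17003 gene windows passed in the Wnt6 deletion, and 15.1% passed in the pairwise comparison of Hoxa over Wnt6. In the Hmx1 deletion none passed in the pooled comparison either, with 4, 3 and 1 genes at an unadjusted p under 0.05 (background 14.7%), and the genes with the smallest p of the eye and forebrain lists were Cyp1b1 (0.18, adjusted p = 0.222), a retinoid-metabolising enzyme of the eye, and Tbr1 (0.20, adjusted p = 0.195), a cortical neuron factor. Both passed with genotype terms (0.0329 for Cyp1b1 and 0.0178 for Tbr1, edgeR adjusted p) and against the Hoxa deletion alone (0.0258 and 0.0112). With genotype terms 1842 of 17003 gene windows passed in the Hmx1 deletion, and 20.1% passed in the pairwise comparison of Hoxa over Hmx1.

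Among the genes that served to check the cell type, 7 active in mESCs were tested. The 2 that rose at an adjusted p under 0.05 in the Hoxa deletion were Klf4 (0.60, edgeR adjusted p = 1.52e-06) and Tfcp2l1 (0.84, adjusted p = 3.31e-04). Of all gene windows 13.6% did so. At an unadjusted p under 0.05 the list gave 4, 3 and 1 genes in the Hoxa, Wnt6 and Hmx1 deletions (background 29.4%, 5.30% and 14.7%). By edgeR no fibroblast gene (7 tested) or housekeeping gene (4 tested) passed in any deletion (background 19.4%, 0.0412% and 0.0706%). In the Hoxa deletion 1 housekeeping gene had an unadjusted p under 0.05. Klf4 and Tfcp2l1 were named after their values were seen.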

How the data were processed

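H3K27me3 Cut&Tag libraries of mESCs with a Hoxa, Wnt6 or Hmx1 deletion were analysed, and 7 IgG samples were not used here. The authors deposited raw counts, without normalization, over a shared list of 74458 peaks with a median width of 476 bp. Per the labels, processing named Trimmomatic, Bowtie2, SAMtools, Picard, MACS2, deepTools and mm10, without versions or roles. How the list was made, whether duplicates were removed, and whether reads or fragments were counted is not given in the sources used here. PCR reads are not independent molecules, and whether peak starts count from 0 or 1 is not stated.

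Columns were matched to samples by title. Peaks within 10 kb of each of 17003 protein-coding genes (RefSeq, GRCm38.p6) were summed per gene, and nearby genes can share peaks. Peaks (filterByExpr by genotype) and gene sums were tested with edgeR 4.0.16 in R 4.3.3 (limma 3.58.1, glmQLFit, glmQLFTest, TMM factors from the peaks, 0.973 to 1.047). Each deletion was set against the others pooled, and pairs were taken from a fit with 3 genotype terms. Adjusted p-values are Benjamini-Hochberg values over all features. A call needed an adjusted p under 0.05 and an absolute log2 fold change over 1. Standard errors come from the F statistic and 95% intervals from the t distribution. Levels are CPM scaled by TMM. The study used DESeq2, here an alternative (1.42.0). Other alternatives were RLE factors, library totals alone, TMM without chromosome 8, offsets that depend on abundance, no filter or a mean count minimum of 20, separate genotype terms, single deletions as the comparison, a replicate block, downsampling, leaving out each library, no fold change minimum, and other windows. Figures used Python 3.11.15 with matplotlib 3.10.9, and tables pandas 2.3.3.

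The members and lists were chosen with earlier results of these data known. Named peaks were the strongest of each gene, those nearest each gene end and those with an adjusted p under 0.05. Of each list (eye and optic stalk, forebrain, urogenital), called genes were named, or else the gene with the smallest p, of which 1 is not reported here. Likeness was Pearson's r of log2 CPM, with the first 2 genes named. Lists of genes active in mESCs, of fibroblasts and of housekeeping checked the cell type. Of 5 housekeeping genes 4 had a peak, with a median of 5.41 CPM per kb. No protein sequence was used here.

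The procedure was tested on simulated counts (dispersion 0.02). For the Hoxa comparison over 17003 gene windows, 100% of genes changed by 1.5 on the log2 scale passed an adjusted p of 0.05, as did 23% of those changed by 0.5 and 8 unchanged genes, and 90.0% of the 95% intervals held the true value (95.5% for Wnt6 and 94.5% for Hmx1). The dispersion was the same for every gene and was not fitted to the 4 genes. Their SD of log2 CPM was 0.0685 to 0.0899, so these shares do not give the power at them.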

Additional observations from a re-analysis of the deposited data

Results flagged for a closer look

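Among 33 sets of 4 or 5 libraries checked for a library far from the rest, 2 were flagged, where chance flags about 1 set in 20. In the libraries without the Hmx1 deletion, the summed level of Noto was 52.7 CPM in Hoxa replicate 3, while the others lay between 35.4 and 40.2 CPM. In the libraries without the Wnt6 deletion, the strongest Vax1 peak (chr19:59166226-59167302) had 89.1 CPM in Hoxa replicate 2, while the others lay between 101.0 and 101.8 CPM. The Wnt6 libraries, left out of that set, had 89.6 and 86.4 CPM, so this value did not stand apart over all libraries.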

How the results depend on the processing

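The 24 summed log2 fold changes of the 4 genes stayed between -0.22 and 0.16 over 408 alternative values, and 2 of these, both Emx2 in Hoxa over Wnt6, passed an adjusted p of 0.05 (0.12, edgeR adjusted p = 0.0478, with library totals alone, and 0.11, adjusted p = 0.0365, with offsets that depend on abundance). The calls at the 4 genes remained 0 peaks under each alternative except without the fold change minimum, which gave 2 in the Hoxa deletion. Sign changes were all of values near 0, and their cause was not tested. Vax1 in the Hoxa deletion (-0.01) became 0.0016 with library totals, 0.01 with abundance offsets, 0.07 against the Wnt6 deletion alone, 0.03 with peaks on the gene body and 0.00065 in a 2 kb window. Against the Hmx1 deletion alone, Vax2 became -0.0031, Emx2 -0.02, and the strongest Vax1 and Vax2 peaks -0.07 and -0.06. Against the Wnt6 deletion alone the strongest Emx2 peak became 0.03, and with TMM factors without chromosome 8 that of Vax2 became -0.02. In the Hmx1 deletion, abundance offsets gave Vax2 -0.04, Emx1 -0.06, Emx2 -0.01 and Noto 0.06. Emx1 there was -0.01 with library totals, -0.0043 against the Hoxa deletion alone and -0.01 in a 50 kb window, and Noto 0.07 after downsampling and 0.11 against the Wnt6 deletion alone. Hoxa over Hmx1 at Vax2 (-0.0013) became 0.0024 with RLE factors, 0.03 with library totals and 0.07 with abundance offsets, that at Emx2 (-0.02) became 0.003 with library totals and 0.05 with abundance offsets, and Wnt6 over Hmx1 at Emx1 (-0.07) became 0.02 with abundance offsets.

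Leaving out each library gave ranges of -0.06 to 0.03 (Vax1, Hoxa deletion), -0.01 to 0.08 (Vax2), -0.04 to 0.08 (Emx1), -0.01 to 0.15 (Emx2) and -0.15 to 0.08 (Noto) in the Hmx1 deletion, -0.0026 to 0.13 (Vax1, Hoxa over Wnt6), -0.05 to 0.05 (Vax2), -0.05 to 0.07 (Emx1) and -0.10 to 0.06 (Emx2) for Hoxa over Hmx1, and -0.15 to 0.00038 (Emx1, Wnt6 over Hmx1). Those of the strongest peaks in the Hoxa deletion were -0.01 to 0.10 (Vax1) and -0.04 to 0.05 (Vax2), and those of the peak medians -0.01 to 0.06 (Emx1, Hoxa deletion) and -0.16 to -0.11 (Emx2, Wnt6 deletion). A deletion left with 1 library was assumed to vary like the others.

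Peak medians moved to 0.04 on the Vax1 gene body and, in a 50 kb window, to 0.06 (Emx1) and -0.08 (Emx2) for the Hoxa deletion, 0.03 (Emx1) and -0.04 (Emx2) for Wnt6, and -0.10 (Emx1) for Hmx1. The Emx2 median was -0.03 and 0.14 for Hoxa against Hmx1 and Wnt6 alone, and 0.16 for Hmx1 against Wnt6 alone. For Wnt6 it was -0.11 with abundance offsets and after downsampling, -0.16 against Hmx1 alone and -0.18 in a 2 kb window. Levels per kb in the 50 kb window were 36.9, 36.5 and 39.0 CPM per kb for Vax1 in the Hoxa, Wnt6 and Hmx1 deletions, 35.6, 32.5 and 34.8 for Vax2, 37.9, 35.8 and 36.9 for Emx1 and 50.1, 46.5 and 50.8 for Emx2. On the gene body they were 90.7, 83.8 and 94.5 for Vax1 and 65.0, 61.8 and 64.8 for Emx1. The 2 higher Vax2 peaks had log2 fold changes of 0.36 to 0.47 (adjusted p 0.0319 to 0.215) and 0.31 to 0.44 (0.0265 to 0.197) over all alternatives.

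In every deletion replicate 1 had the fewest counts (8656908, 9982841 and 6016500 for Hoxa, Wnt6 and Hmx1). Deviations from the deletion means correlated at -0.0415 to 0.083 between same-numbered libraries of different deletions. With 2 libraries such deviations mirror each other, so this check cannot show that the numbers carry no batch. With the replicate block, Hoxa over Hmx1 at Vax2 was 0.01, Noto in the Hmx1 deletion 0.06, the Emx2 median in the Wnt6 deletion -0.16, and the 2 Vax2 peaks had an adjusted p of 0.138 and 0.074. The block called no summed value of the 4 genes. Background counts of gene windows with an adjusted p under 0.05 in the Hmx1 deletion were 12, and 112 with library totals, 31 with abundance offsets, 5 with the block, 521 by DESeq2 and 1842 with a term for each genotype. In the Wnt6 deletion they were 7, 29 by DESeq2 and 612 with that term. Those of peaks were 23, 50, 35, 239 (DESeq2) and 1227 (genotype terms) for Hmx1, and 42 and 427 (genotype terms) for Wnt6. Called peaks were 21, 42 (DESeq2) and 218 (genotype terms) for Hmx1 and 37 and 132 for Wnt6, and called gene windows 3, 8 and 36 for Hmx1 and 6 and 20 (genotype terms) for Wnt6. Depth limits the weak peaks most: the weakest Vax2 peak had 13 to 98 counts.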
